A study of Mus musculus with 12 samples.

Results

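The 10 genes described here, H19, Igf2, Dlk1, Meg3, Ndn, Grb10, Peg3, Mest, Plagl1 and Gnas, are imprinted growth regulators of the long-term stem cell network. They were taken from the tables by symbol, and all 10 had a row among the 24533 genes of each of the authors' 2 deposited tables. RNA was sequenced from 12 libraries of bone marrow cells of C57BL/6 mice, 3 in each of 4 groups. The populations were named LSK and LinNeg, each with a KO and a WT genotype label, where KO refers to U2af1, a splicing factor subunit that reads the AG at the end of an intron. LSK cells lack lineage markers and carry Sca-1 and c-Kit, a fraction in which the stem cells lie, and their source label adds BMT without spelling it out. LinNeg cells are marrow cells left after magnetic removal of mature lineages, and both populations were sorted by flow cytometry. Total RNA was depleted of ribosomal RNA before library preparation. The driver of the deletion, the age and the sex of the animals, and whether replicates came from separate animals, were not stated in the labels. The p-values therefore reflect only how these libraries vary, which may be technical.

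Imprinted genes are read from 1 parental copy, under control of DNA methylation laid down in the germ line. H19, a long noncoding RNA read from the maternal copy, and Igf2, a growth factor read from the paternal copy, share enhancers and a boundary element bound by CTCF. Dlk1, a membrane protein related to Notch ligands, is paternally expressed, and Meg3, a long noncoding RNA, is the maternally expressed partner at the same locus. Grb10 is an adaptor that dampens signalling from the insulin and IGF1 receptors, and Plagl1 is a zinc finger transcription factor that regulates other imprinted genes. Ndn (necdin) restrains the cell cycle, Peg3 is a large zinc finger protein, Mest is a hydrolase-like protein of mesoderm, and Gnas encodes the stimulatory G protein subunit alpha. In mouse marrow, several of these genes are known for high levels in long-term stem cells, and the maternal H19 locus is known to keep those cells quiescent through lower IGF1 receptor signalling.

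H19 is also the precursor of miR-675, and Igf1r is a known target of that microRNA. The mature sequences are shown because of that known link between H19 and Igf1r, which was not tested here. They come from RefSeq (GRCm38.p6, chromosome 7, minus strand), with the seed, bases 2 to 8, in capitals.
mmu-miR-675-3p: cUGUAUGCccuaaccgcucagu
mmu-miR-675-5p: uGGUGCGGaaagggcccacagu
The complement of the 3p seed, GCATACA, was found at 2 places in the 7267 bases of the Igf1r 3′ UTR (GENCODE M21, transcript strand), in capitals here, at bases 505 to 511 and 1264 to 1270 counted from the first base after the stop codon.
Igf1r site at 505: tcatcaccccGCATACAcctgcctgac
Igf1r site at 1264: tgaaacatttGCATACAcatcgtcttt
Of 391 3′ UTRs of like length, 147 (37.6%) hold the same 7 letters. The complement of the 5p seed, CCGCACC, had 0 matches in the Igf1r 3′ UTR, and 5.63% of the UTRs of like length hold it. The precursor Mir675 was listed at 0 in both of the authors' deposited tables, as were Mir483 inside Igf2, Mir335 inside Mest and Mir770 inside Meg3, so no value bears on the microRNAs themselves.

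Grb10 and Peg3 were the only members called higher under the KO label in both populations, and their start regions are shown for that reason. Each sequence holds 300 bases around an annotated start (RefSeq, GRCm38.p6), with every CG in capitals. Grb10 has 2 such regions, chr11:12037371-12037670 with 45 CG and chr11:12027922-12028221 with 9 CG, both on the minus strand. Peg3 has 1, chr7:6730370-6730669 on the minus strand, with 13 CG.
Grb10 upstream start: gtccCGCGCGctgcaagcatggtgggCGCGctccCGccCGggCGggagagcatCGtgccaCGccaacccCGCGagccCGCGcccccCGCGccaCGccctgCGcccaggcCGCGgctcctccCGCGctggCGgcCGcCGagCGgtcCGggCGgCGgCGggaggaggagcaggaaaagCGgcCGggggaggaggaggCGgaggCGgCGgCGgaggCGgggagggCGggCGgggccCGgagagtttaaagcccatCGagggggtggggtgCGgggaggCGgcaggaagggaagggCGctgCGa
Grb10 downstream start: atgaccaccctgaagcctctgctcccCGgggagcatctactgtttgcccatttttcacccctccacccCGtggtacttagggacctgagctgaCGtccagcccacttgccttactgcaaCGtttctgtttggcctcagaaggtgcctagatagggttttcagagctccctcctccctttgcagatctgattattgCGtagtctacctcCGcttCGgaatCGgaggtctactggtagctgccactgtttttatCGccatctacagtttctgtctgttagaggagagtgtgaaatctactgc
Peg3 start: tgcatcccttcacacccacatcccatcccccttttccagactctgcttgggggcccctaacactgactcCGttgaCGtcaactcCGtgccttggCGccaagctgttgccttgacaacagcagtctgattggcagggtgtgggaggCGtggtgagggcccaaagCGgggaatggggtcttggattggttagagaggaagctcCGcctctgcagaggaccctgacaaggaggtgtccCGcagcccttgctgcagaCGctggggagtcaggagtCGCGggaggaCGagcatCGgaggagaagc
Over 32851 promoters of this length the median was 7 CG. The 19 start regions found for 9 members, all except H19, held 1 to 45 CG with a median of 14. The counts per gene sum over all starts, so the 2 Grb10 starts cannot be told apart in these values. The start of Usp29, which is read in the other direction, lies inside the Peg3 region, 0.147 kb from the Peg3 start.

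Features of the libraries other than the label bear on every value that follows. U2af1 was higher under the KO label, with a log2 fold change of 0.61 (standard error, SE, 0.06; adjusted p = 1.72e-25 by the DESeq2 Wald test of the authors) in the authors' deposited table for LSK and 0.65 (SE 0.19, adjusted p = 0.00293) in the one for LinNeg. The labels do not say which exons the deletion removes, so a whole-gene count cannot check them, and every direction below rests on how the authors named the comparison; libraries are called KO-labelled or WT-labelled. Transcripts tied to the sex of the animal differed between the labels. Xist, the RNA of the inactive X, averaged 62360 in KO-labelled and 347 in WT-labelled LSK libraries, and 41468 in KO-labelled and 40.0 in WT-labelled LinNeg libraries, by means derived from the authors' deposited tables. All 4 Y-linked genes fell in LSK, with derived means of 3.33 to 4.99 in KO-labelled and 1895 to 2949 in WT-labelled libraries, and none of the 4 was called in LinNeg. In LSK, the genotype label and the sex of the animals cannot be told apart. In LinNeg, Xist also rose under the KO label (log2 fold change 10.02, SE 1.81, adjusted p = 2.73e-07 by the Wald test). The Y-linked genes there had derived means of at least 754 in KO-labelled libraries. In LinNeg, too, the label and the sex of the animals cannot be fully separated. Of 5 seminal vesicle transcripts, all rose in LinNeg, to a summed derived mean of 183491 in KO-labelled against 281 in WT-labelled libraries, and all were listed at 0 in LSK. The sort markers Kit and Ly6a were present in both populations; in LSK their derived means were 14587 and 335 in KO-labelled and 28724 and 593 in WT-labelled libraries.

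Levels are given as derived means, that is, the mean of normalized counts under each label, computed from the authors' mean over all 6 libraries and their fold change, taking 3 libraries a side. Values per library are not in these tables, so the spread of a level is unknown and only the standard error of a fold change is given. A gene is called where the adjusted p that the authors obtained with DESeq2 is under 0.05. In these bulk samples fewer cells of a type and less RNA per cell cannot be told apart.

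In LSK cells, Grb10 and Peg3 rose, Gnas fell slightly and the other 7 genes were not called. In LinNeg cells, 7 of the 10 rose together (H19, Igf2, Meg3, Grb10, Peg3, Mest and Plagl1), Gnas fell, and Dlk1 and Ndn were not called. These counts stand against a background of 61.6% of 16482 genes called in LSK, 32.4% higher and 29.2% lower, and 41.4% of 17108 genes called in LinNeg, 22.1% higher and 19.3% lower. The members' median log2 fold change was 0.13 in LSK, where the median of all genes tested was 0.04, and 1.86 in LinNeg, where it was 0.16. Recentring on the median gene changed the split of all LinNeg calls, 3781 higher and 3307 lower, to 3025 higher and 4116 lower, and left the members at 7 higher and 1 lower. In LSK recentring changed 5338 higher and 4810 lower to 5051 higher and 5094 lower, with the members at 2 higher and 1 lower in both cases. Most members were scarce in LSK: 8 of 10 had a mean under 20 and 2 had one of at least 100, whereas in LinNeg 1 had a mean under 20 and 7 had one of at least 100.

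**Figure D1:**
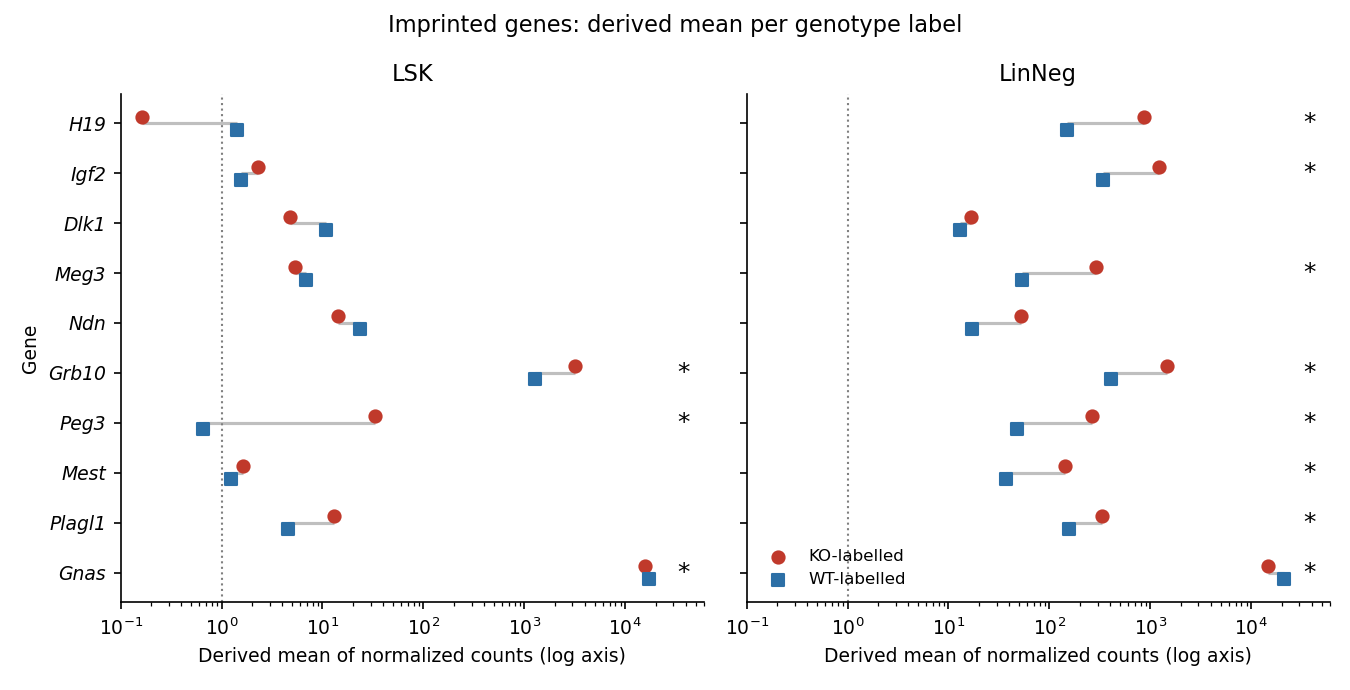
Derived mean of normalized counts (log axis) of each gene in KO-labelled (circles) and WT-labelled libraries (squares), for LSK on the left and LinNeg on the right. An asterisk marks a called gene and the dotted line a mean of 1; in LSK only Grb10 and Gnas lie above 100, and in LinNeg 7 genes have the KO-labelled circle to the right with an asterisk.

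Igf2 encodes the growth factor that signals through Igf1r and is cleared by Igf2r. It lies on chromosome 7 from 142650766 to 142666816, minus strand (mm10), with 9 annotated transcripts. LSK libraries held almost none of it, with derived means of 2.29 in KO-labelled and 1.55 in WT-labelled libraries, and its log2 fold change of 0.56 (SE 1.67, adjusted p = 0.791) in the authors' deposited table could be anything from -2.71 to 3.82 within its 95% interval. LinNeg libraries held 1233 in KO-labelled and 337 in WT-labelled libraries, a log2 fold change of 1.87 (SE 0.31, adjusted p = 9.53e-09). The antisense transcript Igf2os overlaps the gene; it was not called in LinNeg and had no adjusted p in LSK.

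H19 lies nearby on the same strand, from 142575529 to 142578143, and its exons total 2460 bases. In LSK it was at the edge of detection, with derived means of 0.16 in KO-labelled and 1.44 in WT-labelled libraries, so that its fitted log2 fold change of -3.13 (SE 2.72, adjusted p = 0.324) is not a measured ratio. In LinNeg the derived means were 872 in KO-labelled and 149 in WT-labelled libraries. That rise of 2.55 on the log2 scale (SE 0.29, adjusted p = 1.26e-16) in the authors' deposited table was the largest fitted value among the members there, with Peg3 and Meg3 within its error. Both genes of the H19 and Igf2 pair thus rose in LinNeg, although they are read from opposite parental copies.

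Grb10, the receptor adaptor, lies on chromosome 11 from 11930508 to 12038683, minus strand. Beside Gnas, it was the only member whose mean reached 100 in each table. Its derived means were 3172 in KO-labelled and 1286 in WT-labelled LSK libraries, a log2 fold change of 1.30 (SE 0.09, adjusted p = 3.38e-47). In LinNeg they were 1471 in KO-labelled and 410 in WT-labelled libraries, a log2 fold change of 1.84 (SE 0.20, adjusted p = 2.67e-18) in the authors' deposited table. Among the members, these fold changes carry the smallest errors after those of Gnas.

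Plagl1, the transcription factor, lies on chromosome 10 from 13060504 to 13131694, plus strand, with 25 annotated transcripts. In LSK its derived means were 12.9 in KO-labelled and 4.53 in WT-labelled libraries, and the log2 fold change of 1.51 (SE 0.85, adjusted p = 0.113) was not called. In LinNeg it rose, with 335 in KO-labelled and 158 in WT-labelled libraries (log2 fold change 1.09, SE 0.36, adjusted p = 0.0091). The LSK value is the larger of the pair and the less certain, and the test of their difference gave 0.42 with a 95% interval from -1.39 to 2.24.

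Peg3, the zinc finger protein, spans chromosome 7 from 6703892 to 6730431, minus strand. In LSK it had a derived mean of 33.1 in KO-labelled and 0.65 in WT-labelled libraries. Its fitted log2 fold change there, 5.67 (SE 1.18, adjusted p = 3.81e-06) in the authors' deposited table, was the largest among the members, but with a WT-labelled mean under 1 its size is not a measured ratio. In LinNeg the derived means were 264 in KO-labelled and 47.9 in WT-labelled libraries, a log2 fold change of 2.46 (SE 0.58, adjusted p = 0.000133). Usp29, the paternally expressed neighbour across the shared start region, rose in LSK as well, with derived means of 9.29 in KO-labelled and 0.35 in WT-labelled libraries (fitted log2 fold change 4.72, adjusted p = 0.00417, likewise no measured ratio), and was not called in LinNeg (5.07, SE 3.34).

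Dlk1 and Meg3 lie on chromosome 12, plus strand, from 109452823 to 109463336 and from 109541001 to 109571726. Dlk1 was called in neither table. Its derived means were 4.75 in KO-labelled and 10.8 in WT-labelled LSK libraries (log2 fold change -1.19, SE 0.91, adjusted p = 0.259), and 16.8 in KO-labelled and 13.04 in WT-labelled LinNeg libraries (0.37, SE 1.18, adjusted p = 0.833). Meg3 was not called in LSK, at 5.41 in KO-labelled and 6.83 in WT-labelled libraries (log2 fold change -0.34, SE 1.09, adjusted p = 0.809). It rose in LinNeg, to 287 in KO-labelled against 53.1 in WT-labelled libraries (2.43, SE 0.46, adjusted p = 9.34e-07). Rian, a further maternally expressed noncoding RNA 62.9 kb from the Meg3 start, rose in both of the authors' deposited tables, by 3.53 in LSK (SE 0.71, adjusted p = 1.94e-06; derived means 41.5 in KO-labelled and 3.60 in WT-labelled libraries) and by 2.67 in LinNeg (SE 0.76, adjusted p = 0.0018; 155 in KO-labelled and 24.3 in WT-labelled libraries). In LSK, then, Rian was called and Meg3, at a lower mean, was not, and the difference between the genes was not tested.

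Ndn is the only member with a single annotated exon, and thus with no intron to splice; it lies on chromosome 7 from 62346569 to 62350262, plus strand. Its derived means were 14.4 in KO-labelled and 23.5 in WT-labelled LSK libraries (log2 fold change -0.71, SE 0.55, adjusted p = 0.265), and 52.9 in KO-labelled and 17.0 in WT-labelled LinNeg libraries (1.64, SE 0.82, adjusted p = 0.0964). The LinNeg value passed an unadjusted p, at 0.0456, but not the adjustment over all genes. Mest, on chromosome 6 from 30723547 to 30748465, plus strand, was near 0 in LSK, at 1.64 in KO-labelled and 1.24 in WT-labelled libraries (log2 fold change 0.39, SE 1.88, adjusted p = 0.871). In LinNeg it rose, to 142 in KO-labelled against 37.2 in WT-labelled libraries (1.93, SE 0.70, adjusted p = 0.0165). The 3′ end of Mest overlaps Copg2 on the other strand, which fell in both tables, and the strand setting of the counting is not given in the sources used here.

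Gnas moved the other way from the rest of the called members. It lies on chromosome 2 from 174284320 to 174346744, plus strand, and was by far the most abundant member, at percentile 98.9 of the genes tested in LSK and 99.1 in LinNeg. Its derived means were 15689 in KO-labelled and 17180 in WT-labelled LSK libraries, a log2 fold change of -0.13 (SE 0.04, adjusted p = 0.00478). In LinNeg they were 14503 in KO-labelled and 21108 in WT-labelled libraries, a log2 fold change of -0.54 (SE 0.11, adjusted p = 5.45e-06) in the authors' deposited table. Nespas, an antisense noncoding RNA of the same locus that overlaps the 5′ part of Gnas, rose in both tables, by 1.85 in LSK (SE 0.39, adjusted p = 4.39e-06) and 1.51 in LinNeg (SE 0.34, adjusted p = 4.21e-05). The gene holds several promoters with different imprints, and the deposited values sum over them.

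**Figure D2:**
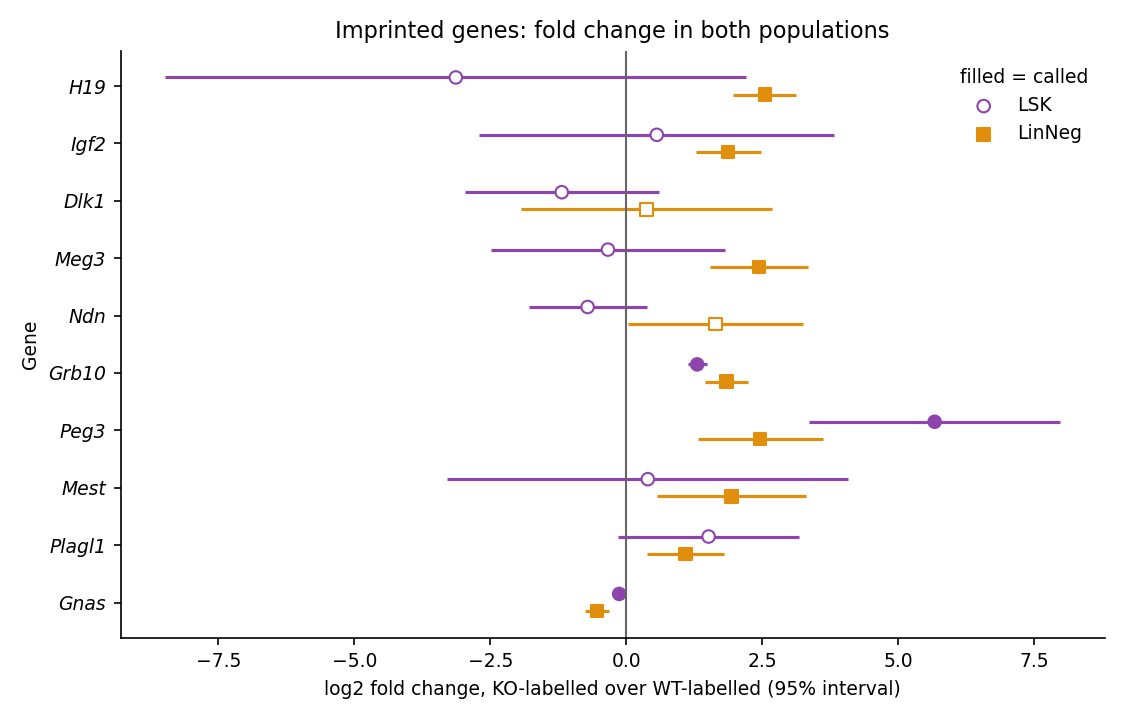
Log2 fold change of each gene, KO-labelled over WT-labelled, with its 95% interval, for LSK (circles) and LinNeg (squares); filled symbols are called. The LSK intervals of H19, Igf2, Dlk1, Meg3, Ndn, Mest and Plagl1 span 0, whereas in LinNeg 7 genes lie to the right of 0 with intervals clear of it and are called, and Gnas lies to the left in both.

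A gene called in one population and not in the other is not thereby shown to differ between them, so the difference of the log2 fold changes, LSK minus LinNeg, was tested over 17397 genes, of which 28.3% were called, 15.5% with a positive and 12.8% with a negative difference. Among the members Gnas alone was called: its difference was 0.41 (SE 0.12, adjusted p = 0.00284), with log2 fold changes of -0.13 in LSK and -0.54 in LinNeg. Several others came close to the threshold. Grb10 differed by -0.54 (95% interval -0.97 to -0.11, adjusted p = 0.0505) and Peg3 by 3.21 (0.63 to 5.78, adjusted p = 0.0512), both having risen in both tables. Ndn differed by -2.35 (adjusted p = 0.0595) and Meg3 by -2.77 (adjusted p = 0.0649), each with a negative log2 fold change in LSK and a positive one in LinNeg. The difference of H19, -5.68, had a 95% interval from -11.0 to -0.31 and an adjusted p of 0.112. Recentring each table on its median gene brought the fitted value of Peg3 past the threshold (3.32, adjusted p = 0.0394), but the differences of Peg3 and H19 rest on LSK means under 1 and their sizes are not measured. Adjusting only over genes whose mean reached 50 in each table brought Grb10 past it (adjusted p = 0.0392), whereas after recentring its difference was -0.43 (adjusted p = 0.138).

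Set per kb of annotated exon, which allows levels of different genes to be ordered within a table, Gnas came first everywhere, at 1403 in KO-labelled and 1536 in WT-labelled LSK libraries and at 1297 in KO-labelled and 1887 in WT-labelled LinNeg libraries. Grb10 was next in LSK, at 349 per kb in KO-labelled and 142 in WT-labelled libraries. All others were under 7 per kb there, led by Ndn at 3.89 in KO-labelled and 6.37 in WT-labelled libraries. In LinNeg H19 followed Gnas, at 354 per kb in KO-labelled and 60.7 in WT-labelled libraries. Igf2 came after it, at 216 in KO-labelled and 59.0 in WT-labelled libraries, and Grb10 at 162 in KO-labelled and 45.1 in WT-labelled libraries. Dlk1 was last in LinNeg, at 2.98 per kb in KO-labelled and 2.31 in WT-labelled libraries. Without values per library it cannot be said which neighbours in these orders differ beyond their spread, and since the tables were normalized separately the levels are not compared between populations.

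Other imprinted genes did not all move with these 10. Of 61 further genes listed as imprinted, 60 had a row, and whether each is imprinted in marrow was not tested. In LSK 14 rose and 22 fell of 47 tested (median log2 fold change -0.23), and in LinNeg 16 rose and 8 fell of 51 tested (median 0.66). Igf2r, the receptor that clears Igf2, rose by 1.33 in LSK (SE 0.12, adjusted p = 4.67e-26), to a derived mean of 2122 in KO-labelled against 844 in WT-labelled libraries. In LinNeg it rose by 1.83 (SE 0.18, adjusted p = 3.9e-22), to 2626 in KO-labelled against 737 in WT-labelled libraries. Gab1, a docking protein of growth factor receptors, fell in LSK by 1.41 and rose in LinNeg by 1.65 in the authors' deposited tables. In LSK the noncoding RNA Peg13 fell by 2.62 and Ppp1r9a by 2.16, and Gatm, an enzyme of creatine synthesis, rose by 1.38. In LinNeg Slc22a3, an organic cation transporter, fell by 2.74. Cdkn1c (p57), an imprinted inhibitor of the cell cycle known for stem cell quiescence and named here after its values were seen, fell by 2.11 in LSK (SE 0.32, adjusted p = 1.65e-10; derived means 26.3 in KO-labelled and 114 in WT-labelled libraries). In LinNeg it rose by 1.69 (SE 0.49, adjusted p = 0.0024; 174 in KO-labelled and 54.0 in WT-labelled libraries), and the difference of -3.80 was called (adjusted p = 2.43e-09).

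**Figure D3:**
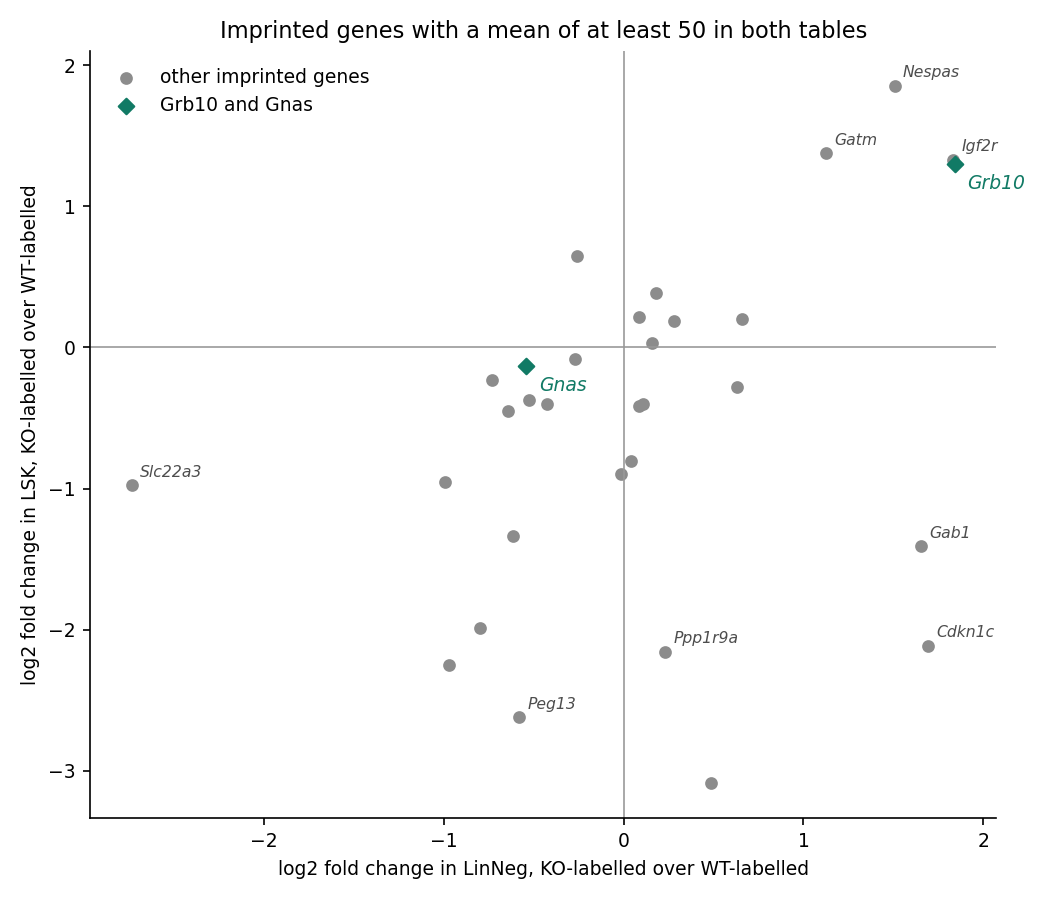
Log2 fold change, KO-labelled over WT-labelled, in LSK (vertical axis) against LinNeg (horizontal axis) for imprinted genes whose mean reached 50 in each table (2 members and 29 others). Grb10 lies beside Igf2r at upper right, Gnas near the centre at lower left, and Gab1 and Cdkn1c at lower right, with opposite signs in the 2 populations.

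The genes around the members were also read, up to 3 on each side. Of 49 such neighbours, 40 were tested in each table; 14 rose and 8 fell in LSK, and 12 rose and 4 fell in LinNeg, shares close to the 61.6% and 41.4% called over all genes. The 12 called in both were Mrpl23, Cd81, Wars, Rian, Fignl1, Cobl, Copg2, Stx11, Ltv1, Phactr2, Nespas and Ctsz. Near Grb10, Cobl, an actin nucleator that is itself imprinted in some mouse tissues, rose by 2.50 in LSK (SE 1.05, adjusted p = 0.0291) and by 2.42 in LinNeg (SE 0.60, adjusted p = 0.000307). Near Plagl1, Phactr2 fell in both, by 1.85 in LSK and 2.16 in LinNeg, while Stx11 rose by 1.81 in LSK and 0.78 in LinNeg and Ltv1 by 0.84 in LSK and 1.0 in LinNeg. Near Igf2, Cd81 rose by 0.54 in LSK and 1.12 in LinNeg, and near H19, Mrpl23 rose by 0.42 in LSK and 0.73 in LinNeg. Fignl1 near Grb10 rose by 0.47 in LSK and 0.51 in LinNeg, and Wars near Dlk1 by 0.68 in LSK and 0.95 in LinNeg. Copg2, which meets Mest at its 3′ end, fell by 0.23 in LSK and 0.73 in LinNeg. Ctsz near Gnas rose by 1.17 in LSK and fell by 1.09 in LinNeg. Values are from the authors' deposited tables.

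The receptors and inner steps of IGF signalling, through which Igf2 and Grb10 act, moved in both directions. Of the genes tested, Igf2 and Grb10 among them, 10 rose and 15 fell of 34 in LSK, and 11 rose and 10 fell of 36 in LinNeg, where recentring on the median gene gave 10 higher and 14 lower. Igf1r, the IGF1 receptor, fell by 0.49 in LSK (SE 0.07, adjusted p = 1.39e-12), with derived means of 9772 in KO-labelled and 13689 in WT-labelled libraries. In LinNeg it fell by 1.82 (SE 0.15, adjusted p = 1.14e-32), with 6700 in KO-labelled and 23695 in WT-labelled libraries, and the difference of 1.34 between the populations was called (adjusted p = 9.17e-15). In the authors' deposited table for LSK, the regulatory kinase subunit Pik3r2 rose by 1.06. In LinNeg Igfbp4, a binding protein that holds IGFs away from the receptor, fell by 3.10, and the receptor substrate Irs2 rose by 2.06. In LinNeg, Igf2, Igf2r, Grb10 and Irs2 were thus among the 11 listed genes that rose, and Igf1r and Igfbp4 among the 10 that fell. Whether H19, which is not on this list, bears on the fall of Igf1r was not tested.

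The list for imprint maintenance holds genes that write, read and erase DNA methylation, and also histone modifiers and other chromatin factors. Its genes rose in 8 and fell in 12 of 26 tested in LSK, and rose in 3 and fell in 8 of 26 in LinNeg. Recentring on the median gene gave 7 higher and 12 lower in LSK and 1 higher and 11 lower in LinNeg, and recentring on the median of genes with a mean of at least 1000 gave 7 higher and 17 lower in LSK and 4 higher and 6 lower in LinNeg. Tet1, an enzyme that oxidises methylcytosine, fell by 1.72 in LSK and 2.20 in LinNeg, and the DNA methyltransferase Dnmt3a fell by 1.41 in LSK and 0.99 in LinNeg. Dnmt3b fell by 1.12 in LSK and Tet2 by 1.36 in LinNeg in the authors' deposited tables. Methylation itself was not measured, and imprinted expression of 1 parental copy cannot be told from expression of both in these counts.

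Around Gnas, the cAMP pathway, Gnas included, had 11 genes higher and 12 lower of 34 in LSK, and 5 higher and 12 lower of 34 in LinNeg. Gng2, a gamma subunit of G proteins, fell by 1.94 in LSK and 2.08 in LinNeg. In LSK the phosphodiesterase Pde4b fell by 1.96 and the adenylyl cyclase Adcy9 by 1.46, and in LinNeg the kinase subunit Prkacb fell by 1.33 and the cyclase Adcy6 rose by 1.59. Around Dlk1, the Notch pathway, Dlk1 included, had 4 genes higher and 7 lower of 21 in each population. The receptor Notch1 fell by 2.05, the ligand Jag2 by 1.74 and the glycosyltransferase Mfng by 1.59 in LSK, and in LinNeg the receptor Notch2 fell by 0.94, the coactivator Maml1 fell by 0.76 and the target gene Hes1 rose by 2.07 in the authors' deposited tables. Genes of the fetal growth programme and let-7, of which Igf2bp proteins bind Igf2 RNA, rose in 5 and fell in 2 of 12 in LSK, and rose in 2 and fell in 2 of 13 in LinNeg. Hmga2 fell by 2.34 in LSK and 2.04 in LinNeg, and Drosha, which cuts primary microRNAs, rose by 0.78 in LSK and 1.0 in LinNeg. Zcchc11, which adds uridines to let-7 precursors, fell by 0.79 in LSK, and Arid3a fell by 1.68 in LinNeg.

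Markers of the stem cells in which several of these genes are known to be high were read beside them. Of 14 long-term stem cell genes, 1 rose and 11 fell in LSK (median log2 fold change -2.53), with a summed derived mean of 10015 in KO-labelled and 49732 in WT-labelled libraries. In LinNeg 5 rose and 3 fell (median 1.06), with 5329 in KO-labelled and 6412 in WT-labelled libraries. Single genes weigh heavily in these LinNeg sums. Angpt1, which fell (log2 fold change -3.05), alone held 3483 of the WT-labelled sum. Mllt3, which rose (1.53), held 2924 of the KO-labelled sum. None of the 14 was listed at 0.

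Several members are also abundant outside blood cells, so markers of other cell types were read beside them. Of 20 neural markers, all tested in LSK, 16 rose and 1 fell there, with a summed derived mean of 9849 in KO-labelled and 6882 in WT-labelled libraries; 9 of the 20 had a WT-labelled mean under 1, as Peg3 did. In LinNeg 8 rose and 0 fell of 19 tested, with sums of 40820 in KO-labelled and 10876 in WT-labelled libraries. Mesenchymal stromal markers rose in 3 and fell in 1 of 12 in LSK, with sums of 1799 in KO-labelled and 3798 in WT-labelled libraries. The 1 that fell, Pdgfrb (log2 fold change -2.5), alone held 3624 of that WT-labelled sum. The 3 that rose were Pdgfra, Col1a2 and Sparc, so the lower sum does not describe the list as a whole. In LinNeg 2 rose and 3 fell of 14, with sums of 132288 in KO-labelled and 208185 in WT-labelled libraries, of which Col1a1 alone held 74878 in KO-labelled and 114997 in WT-labelled libraries. Endothelial markers rose in 2 and fell in 7 of 10 in LSK, and rose in 2 and fell in 2 of 10 in LinNeg. This list shares Robo4, which fell by 4.85 in LSK and rose by 1.89 in LinNeg, with the long-term stem cell list, so the lists are not separate readings. None of the neural, stromal or endothelial markers was listed at 0 in either table. The part of neural, stromal and seminal vesicle transcripts, and of the sex of the animals, in the members' values was not tested.

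Of the blood lineage markers, erythroid genes rose in 9 of 9 tested in LSK and 8 of 9 in LinNeg; of the globins, Hbb-bt and Hbb-bs were listed at 0 in both tables and Hba-a1 and Hba-a2 in LinNeg. Neutrophil and monocyte genes rose in 9 and fell in 3 of 15 in LSK, and rose in 0 and fell in 12 of 13 in LinNeg. Of lymphoid genes, 2 of 10 fell and 0 rose in LSK, and 1 of 9 fell and 1 rose in LinNeg, with the rest not called. The LSK sort markers rose in 0 and fell in 5 of 6 in LSK, and rose in 1 and fell in 3 of 6 in LinNeg. The part of these shifts in the members' values was not tested.

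**Figure D4:**
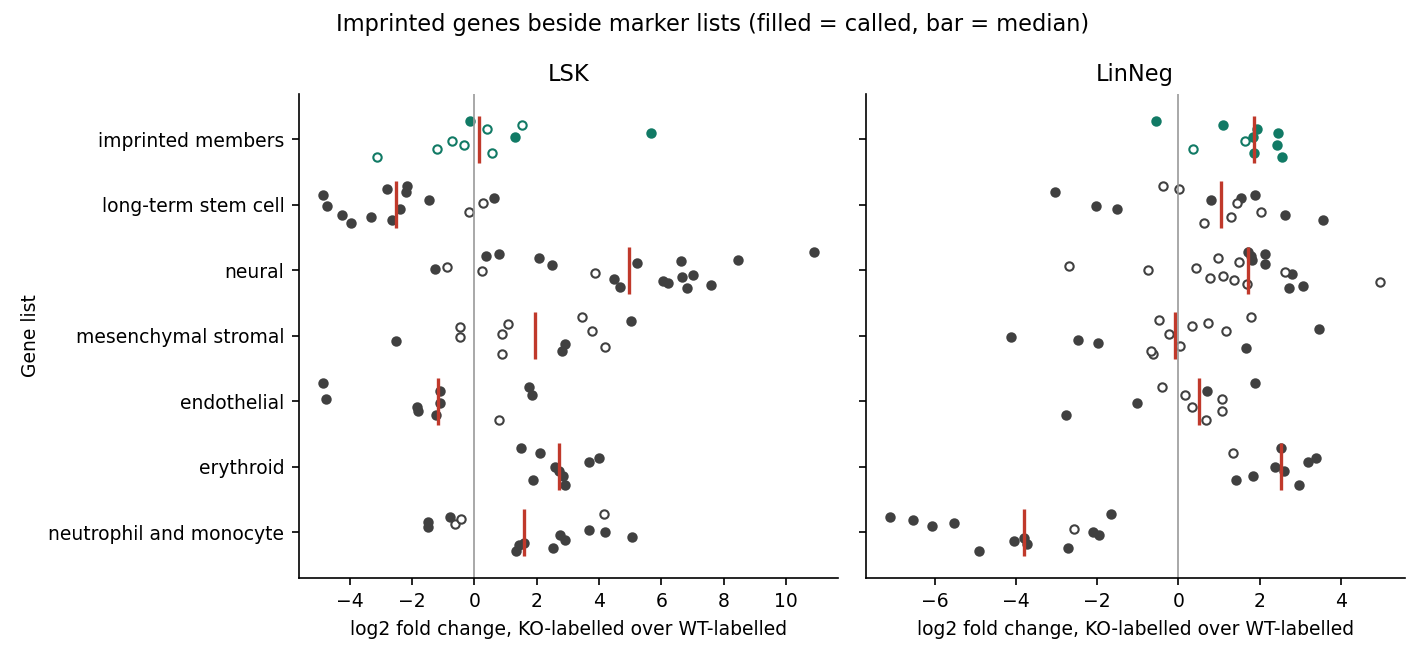
Log2 fold change, KO-labelled over WT-labelled, of each tested gene of the imprinted group (top row) and of marker lists, for LSK on the left and LinNeg on the right; filled points are called and red bars are medians. In LSK the imprinted genes (median 0.13) lie between the long-term stem cell list (median -2.53) and the neural list (median 4.95). In LinNeg their median of 1.86 lies between those of the long-term stem cell (1.06) and neural (1.71) lists on one side and the erythroid list (2.53) on the other.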

How the data were processed

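Total RNA was sequenced from 12 libraries, and the values used are the authors' 2 tables of comparisons, KO against WT within LSK and within LinNeg. Reads were handled with DESeq2, StringTie, SAMtools 1.10 and HISAT2 on build mm10, per the submitters' processing notes; how reads were counted, with which strand setting and annotation, is not given in the sources used here, so overlapping and antisense genes cannot be told apart. Per the file headers, the deposited columns are a linear signal (the mean of normalized counts over all libraries compared), a log2 fold change with its standard error, the Wald statistic as a score, and a p-value with its adjusted form. Values per library and splicing events were not analysed here; edgeR, named in the plan for counts, was therefore not used, and depth per library is unknown. Each table had 24542 rows, of which 5 that name no gene and 4 with repeated symbols were left out. Reads assigned to no gene were 26.4% of the total in LSK and 38.0% in LinNeg.

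Because the deposited log2 fold changes are rounded (largest gap 0.005), the product of statistic and standard error was used instead. A gene was called at an adjusted p under 0.05 over the whole table. The difference LSK minus LinNeg was divided by its standard error, from the squared errors of both tables, and tested two-sided against the normal distribution (Benjamini-Hochberg over 17397 genes). This step was run on simulated data for the more abundant genes only, with noise drawn from the standard errors that the test divides by. That run checks the arithmetic and not how the test behaves for scarce genes, among them most members in LSK. The members and all lists were chosen with earlier results of these data known. Named were the 10 members, U2af1, neighbours called in both tables, and from each list the 3 called genes with the smallest p in each table, of which 1 is not reported here; others are said to be so or are markers. A planned reading of intron ends at 3′ splice sites was not done, because no genome sequence was used here. Neighbours, exons and coordinates come from GENCODE M21 (mm10), and promoter and microRNA sequences from RefSeq (GRCm38.p6). Alternatives were a threshold of 0.01, a mean of at least 50, no filter, recentring, and a 2-fold minimum. Software was Python 3.11.15 with matplotlib 3.10.9, scipy 1.17.1, numpy 2.4.6 and pandas 2.3.3.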

Additional observations from a re-analysis of the deposited data

Results flagged for a closer look

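Among the imprinted members, the effect of the KO label on Gnas differed between the populations by the test of the difference itself, 0.41 on the log2 scale (LSK minus LinNeg, adjusted p = 0.00284). The following named genes differed by the same test, each value being the log2 fold change in LSK minus that in LinNeg. Over all genes tested, 28.3% were called by this test. The genes were mostly named for a small p in either population, and named genes without a called difference are left out here. The list thus gives no share for any pathway. Among other imprinted genes the difference was -3.80 for Cdkn1c, -3.06 for Gab1, -2.38 for Ppp1r9a, -2.04 for Peg13 and 1.76 for Slc22a3. Among neighbours of the members it was 2.25 for Ctsz, 1.04 for Stx11, 0.50 for Copg2 and -0.58 for Cd81. In IGF signalling it was 2.35 for Igfbp4, 1.34 for Igf1r and -0.80 for Irs2. Among imprint maintenance genes it was 1.13 for Tet2, 0.48 for Tet1 and -0.91 for Dnmt3b. In the cAMP pathway it was -2.16 for Pde4b, -1.70 for Adcy9 and -0.91 for Adcy6. In the Notch pathway it was 0.66 for Notch2, -0.72 for Notch1 and -1.09 for Mfng. In the fetal programme it was 2.29 for Arid3a and -0.70 for Zcchc11. All had an adjusted p under 0.05 over the genes tested in both tables.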

How the results depend on the processing

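Single member values were recomputed under recentring only, and 49 of them kept their direction and side of the threshold. Under the alternatives listed, 22 recomputed counts stayed within 1.5 times their main value. Requiring a change of at least 2-fold left 3732 called genes in LSK (1607 higher, 2125 lower, against 5338 and 4810) and 4043 in LinNeg (2403 higher, 1640 lower, against 3781 and 3307). In LSK the members called went from 3 to 2 at 2-fold (without Gnas), where 22.6% of all genes were called. They were also 2 where the mean had to reach 50. Grb10 and Gnas were the only members tested under that setting, with 77.4% of all genes called. In LinNeg the members called went from 8 to 7 at 2-fold (without Gnas) and at 0.01 (without Mest), with 23.6% and 31.8% of all genes called. The number of members with a called difference between populations was 2 among genes whose mean reached 50 in each table (Gnas and Grb10, the only members tested there). It was 2 after recentring (Gnas and Peg3), against 1. Of all genes, 38.2% had a called difference with the mean of 50, 30.5% after recentring and 28.3% in the main setting. The filter at 50 adjusts p-values over fewer genes, and the cause of the change after recentring was not tested. The recentred difference of Peg3, 3.32 (adjusted p = 0.0394), rests on a WT-labelled LSK mean under 1 and is no measured size. No member value changed sign on recentring; the balance of all calls turned in both tables. No paired analysis was possible because the tables hold no values per library, and for the same reason no replicate was left out in turn. Depth per library is unknown, and with 8 of 10 members under a mean of 20 in LSK, changes of those genes there may not have been detectable.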
